A study of Mus musculus with 16 samples.

Results

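The genes described here are Lcat, Apoe, Apoc1, Pltp, Abca1, Abcg1 and Scarb1, which build, remodel and exchange cholesterol-carrying lipoproteins. They are 7 of the 25791 gene symbols for which glomerular expression was measured, and they were picked by name, with their values in RAAS-blocked against untreated mice already in view. For that reason their differences between the groups are given as a description, without a test. All 16 mice were of the genotype eNOS-/-//db/db, that is, lacking endothelial nitric oxide synthase and carrying the db leptin receptor mutation on both alleles, a cross used as a model of type 2 diabetes with kidney disease. Every cell of these mice carries both mutations, and no mouse without diabetes was analysed here. The untreated group had 9 libraries (replicates 0 to 8). The RAAS-blocked group had 7 (replicates 0 to 6), from mice given lisinopril at 20 mg/day, which inhibits angiotensin-converting enzyme, together with losartan at 30 mg/day, which blocks the type 1 angiotensin II receptor. Both drugs were in the drinking water from an age of 10 to 12 weeks up to 26 weeks, and act at different steps of the renin-angiotensin-aldosterone system (RAAS). RNA came from glomeruli, the filtering units of the kidney, which were collected from 1 kidney with a magnet after perfusion with iron. Values are in FPKM, fragments scaled by transcript length and by the mapped fragments of the library.

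Cells cannot break down the sterol ring, and surplus cholesterol has to leave them. ABCA1 passes cholesterol and phospholipid to lipid-poor apolipoproteins, ABCG1 passes cholesterol to formed high-density lipoprotein (HDL), and apolipoprotein E can act as an acceptor. LCAT, which circulates mainly as a liver product, esterifies the cholesterol of HDL, PLTP moves phospholipid between particles, apolipoprotein C1 modulates these enzymes, and the receptor SR-BI, the product of Scarb1, takes up cholesteryl ester from HDL. Abca1, Abcg1, Apoe, Apoc1 and Pltp are known targets of the liver X receptors (LXR), nuclear receptors that sense oxysterols, and are well expressed in lipid-loaded macrophages.

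The libraries carried strong podocyte and endothelial signals. The mean log2(FPKM + 1) of 11 podocyte genes lay between 6.82 and 8.29, and that of 12 endothelial genes between 7.19 and 8.39. The podocyte gene Podxl was listed at 0 in every library, so a 0 in this table need not mean absence. Tubular RNA varied much more, with a proximal tubule marker level (13 genes) between 1.86 and 6.47. No gene of the hepatocyte list and none of the adipocyte list reached 1 FPKM in 7 libraries. Albumin peaked at 1.58 FPKM, though Serpina1a of the hepatocyte list reached 20.6 FPKM in untreated replicate 1. RAAS-blocked replicate 0 alone held Adipoq (4.61 FPKM) and Cfd (12.8 FPKM) of the adipocyte list above 1 FPKM. Of 9 cell type levels, the fibroblast level (5 genes) alone differed between the groups, at 2.82 ± 0.35 (SD, n = 9) in untreated and 3.48 ± 0.23 (SD, n = 7) in RAAS-blocked mice (exact two-sided permutation test, adjusted p = 0.0126 over the 9 levels).

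Libraries that stood apart bear on all values below. Untreated replicate 3 had a macrophage marker level (17 genes) of 6.81, against at most 4.77 in the other untreated and 5.60 in the RAAS-blocked libraries. Its C1qa was at 408 FPKM and its Csf1r at 149.8 FPKM. RAAS-blocked replicate 4 had the fewest symbols above 0, at 16919 against 17993 to 18613. Its Ren1, the renin gene, which is known to rise when angiotensin II signalling is blocked, was at 33.5 FPKM. The other 6 RAAS-blocked libraries held 443 to 1584 FPKM of Ren1 and the untreated libraries 6.92 to 263 FPKM. The 263 FPKM belonged to untreated replicate 3, and the other untreated libraries held at most 59.9 FPKM. The library labelled RAAS-blocked replicate 4 thus went against its label in this gene. The differences of the 7 genes are therefore also given without these 2 libraries, as an alternative added after seeing the data. The ribosomal RNA Rn18s had a listed value of 0 in each untreated library, while the 7 RAAS-blocked libraries held 2214 to 9925 FPKM of it; treatment and any handling or processing that differed by group cannot be told apart.

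Apoe was by far the most abundant of these transcripts. Its median over all libraries was 310 FPKM, and it was followed by Pltp (28.1 FPKM), Scarb1 (26.8 FPKM), Abcg1 (9.16 FPKM), Abca1 (6.05 FPKM), Apoc1 (2.06 FPKM) and Lcat (1.19 FPKM). Neighbours in this order were compared within libraries, with both groups pooled. The order was taken from these same libraries, so the p-values describe the gaps and are no independent test of the order. Apoe exceeded Pltp, and Scarb1 exceeded Abcg1, in 16 of 16 libraries (exact two-sided sign-flip test, adjusted p = 9.16e-05 for each over 6 comparisons, from the smallest p the test can give). Pltp and Scarb1 could not be ranked: Pltp was the higher in 11 of 16 libraries, with a mean log2 gap of 0.18 ± 0.35 (SD) and an adjusted p of 0.0544 by the exact sign-flip test. Apoc1 stood above Lcat in 10 of 16 libraries, with a mean log2 gap of 0.59 ± 1.04 (SD) and an adjusted p of 0.0368 by the same exact test. The other 2 steps, from Abcg1 to Abca1 and from Abca1 to Apoc1, each held in 14 of 16 libraries.

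**Figure D1:**
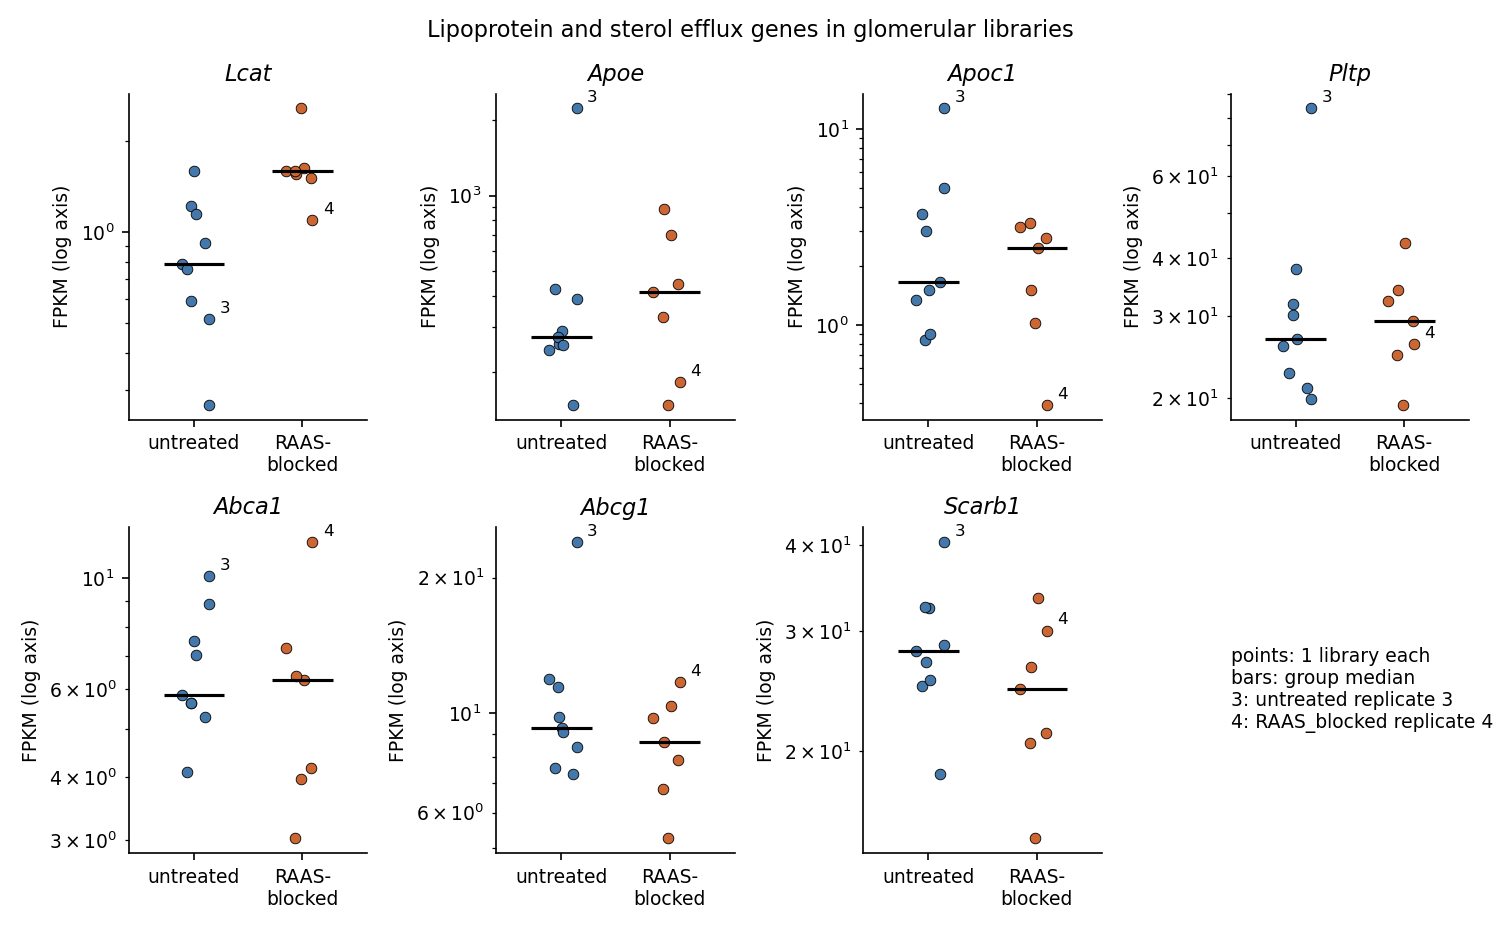
Expression of the 7 genes in FPKM on log axes, 1 point per library, with 9 untreated libraries on the left and 7 RAAS-blocked libraries on the right of each panel. Bars are group medians, and the points of untreated replicate 3 and RAAS-blocked replicate 4 are numbered. All 7 RAAS-blocked libraries lie above the untreated median of Lcat, while untreated replicate 3 is the highest untreated point of the other 6 genes.

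Lcat, the cholesterol-esterifying enzyme, was expressed at a low level in every library. In untreated mice it ran from 0.27 FPKM in replicate 1 over a median of 0.79 FPKM to 1.59 FPKM in replicate 0. In RAAS-blocked mice it ran from 1.10 FPKM in replicate 4 over a median of 1.59 FPKM to 2.57 FPKM in replicate 6. The ranges overlapped between 1.10 and 1.59 FPKM, a span that held 3 untreated and 4 RAAS-blocked libraries, although all 7 RAAS-blocked libraries were above the untreated median and 3 were above the highest untreated library. The means were 0.87 ± 0.40 FPKM (SD, n = 9) and 1.65 ± 0.44 FPKM (SD, n = 7), a ratio of 1.90. On the scale of log2(FPKM + 1) the difference was 0.52 ± 0.14 (SE). At this low level the added 1 dominates the scale, and with an added 0.1 FPKM the difference was 0.95. Without RAAS-blocked replicate 6 the ratio was 1.73, and without both libraries that stood apart the ratio was 1.91. The RAAS-blocked values of 5 libraries lay close together, between 1.51 and 1.64 FPKM.

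Apoe encodes the apolipoprotein that the receptors of the LDL receptor family bind. Its untreated values ran from 148 FPKM in replicate 6 over a median of 274 FPKM to 2219 FPKM in replicate 3, whose nearest untreated neighbour had 426 FPKM. Its RAAS-blocked values ran from 148 FPKM in replicate 6 over a median of 413 FPKM to 884 FPKM in replicate 3. The groups overlapped almost throughout, with no RAAS-blocked library outside the untreated range. The group means of 500.1 ± 650 FPKM (SD, n = 9) and 443 ± 268 FPKM (SD, n = 7) were ordered by 1 library: without untreated replicate 3 the untreated mean was 285 ± 86.8 FPKM (SD, n = 8) and the ratio of RAAS-blocked to untreated was 1.55, in place of 0.89. The log2 difference was 0.11 ± 0.49 (SE), and 0.45 without that library. It turned negative without RAAS-blocked replicate 3 (-0.09), RAAS-blocked replicate 2 (-0.04) or untreated replicate 6 (-0.04). Without both libraries that stood apart it was 0.62.

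Apoc1 lies next to Apoe in the genome and was far less abundant. It ran from 0.84 to 12.7 FPKM in untreated mice, with a median of 1.65 FPKM, and from 0.39 to 3.31 FPKM in RAAS-blocked mice, with a median of 2.47 FPKM. The highest value belonged to untreated replicate 3 and the lowest to RAAS-blocked replicate 4. The ranges overlapped, and the log2 difference of -0.29 ± 0.39 (SE) ran from -0.41 (without untreated replicate 7) to -0.05 (without untreated replicate 3) when 1 library was left out. It was 0.13 without both libraries that stood apart.

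Pltp, the phospholipid transfer protein gene, was at 20.0 to 38.0 FPKM in 8 untreated libraries and at 84.0 FPKM in untreated replicate 3, with an untreated median of 26.8 FPKM. RAAS-blocked libraries held 19.4 to 43.1 FPKM with a median of 29.4 FPKM, inside the untreated range but for the lowest. The log2 difference was -0.05 ± 0.25 (SE). Leaving out 1 library gave -0.14 (without RAAS-blocked replicate 2) to 0.13 (without untreated replicate 3), and the sign also turned without RAAS-blocked replicate 6 (0.04). It was 0.16 without both libraries that stood apart.

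Abca1, the exporter that loads lipid-poor apolipoproteins, ran from 4.09 over a median of 5.83 to 10.1 FPKM in untreated mice. In RAAS-blocked mice it ran from 3.02 over a median of 6.27 to 11.8 FPKM. The RAAS-blocked group spanned the untreated one, with 1 library above it (replicate 4) and 2 below it (replicates 5 and 6). The log2 difference was -0.16 ± 0.21 (SE), and leaving out 1 library gave values from -0.32 (without RAAS-blocked replicate 4) to -0.04 (without RAAS-blocked replicate 5). It was -0.25 without both libraries that stood apart.

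Abcg1, the exporter to formed HDL, was at 7.31 to 11.9 FPKM in 8 untreated libraries and at 24.0 FPKM in untreated replicate 3; the untreated median was 9.24 FPKM. RAAS-blocked libraries held 5.26 to 11.7 FPKM, with a median of 8.62 FPKM and 2 libraries below every untreated one. The log2 difference was -0.27 ± 0.20 (SE), with a range from -0.34 (without RAAS-blocked replicate 4) to -0.12 (without untreated replicate 3) when 1 library was left out. It was -0.20 without both libraries that stood apart.

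Scarb1, the gene of the HDL receptor SR-BI, varied least, with 2.71 times between the highest and the lowest library. Untreated values ran from 18.5 over a median of 28.04 to 40.5 FPKM, and RAAS-blocked values from 14.9 over a median of 24.7 to 33.5 FPKM. The groups overlapped, with 2 of 7 RAAS-blocked libraries above the untreated median, and the log2 difference was -0.23 ± 0.16 (SE). Leaving out 1 library gave -0.31 (without RAAS-blocked replicate 2) to -0.12 (without RAAS-blocked replicate 6), and leaving out both that stood apart gave -0.22.

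Across the whole table few genes separated the groups. All 7 genes passed the filter of 1 FPKM in at least 7 libraries, Lcat with 3 untreated and all 7 RAAS-blocked libraries. By limma with Benjamini-Hochberg adjustment, 2 of 13286 tested genes (0.0151%) passed an adjusted p of 0.05, namely Rn18s and Mgat1, and 0 of the 7 genes did. At an unadjusted p of 0.05, 814 genes (6.13%) passed, with Lcat as the 1 of 7. By the exact Wilcoxon test 757 genes (5.7%) had an unadjusted p under 0.05, again 1 of the 7, and no gene passed after adjustment. The 2 groups did not overlap for 8 genes (0.0602%), none of them among the 7. With untreated replicate 3 and RAAS-blocked replicate 4 left out, an alternative added after these libraries had been seen to stand apart, 16 genes (0.12%) passed the adjusted limma threshold, again 0 of the 7. Since the 7 were chosen on this contrast, nothing is read from these counts. The median log2 difference of the 7 was -0.16, beside -0.02 over all tested genes.

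The genes were next compared with one another and with cell type marker levels inside the groups, a measure that the choice of genes on the group contrast did not use. Group means were removed from log2(FPKM + 1), and 70 relations (21 gene pairs and 49 pairs of a gene with a marker level) were tested over 16 libraries by two-sided permutation within groups with Benjamini-Hochberg adjustment. Of these, 9 passed. The points share their library's depth and cell mix, and in such bulk RNA fewer cells of a type and less RNA per cell cannot be told apart.

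Abcg1 and Scarb1 were the tightest pair. Pearson's r was 0.83 and Spearman's rho 0.87 (permutation test, adjusted p = 0.0028 and 0.0035), with r = 0.80 among untreated and 0.94 among RAAS-blocked libraries. Without untreated replicate 3 and RAAS-blocked replicate 6, which were farthest out, r was 0.76, and in every set with 1 library left out r stayed between 0.80 and 0.86 and passed. Abca1 joined this pair less firmly. Its r with Abcg1 was 0.66 (rho 0.69; permutation test, adjusted p = 0.0270 and 0.0577; 0.60 without the 2 farthest libraries), and it no longer passed without untreated replicate 3 (0.64), untreated replicate 6 (0.65) or RAAS-blocked replicate 4 (0.64). Its r with Scarb1 was 0.67 (permutation test, adjusted p = 0.0556), while rho was 0.81 and passed (permutation test, adjusted p = 0.0273).

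Pltp passed with Scarb1 and Abcg1 but not with Abca1, where r was 0.43 and rho 0.46 (permutation test, adjusted p = 0.221 and 0.289). Its r with Scarb1 was 0.75 (rho 0.74; permutation test, adjusted p = 0.0201 and 0.0276; 0.66 without the 2 farthest libraries), which missed the threshold without RAAS-blocked replicate 6 (0.73). With Abcg1 r was 0.85 (rho 0.74; permutation test, adjusted p = 0.0212 and 0.0276). That value rested in large part on untreated replicate 3, without which r was 0.62 and did not pass; it also missed the threshold without untreated replicate 6 or RAAS-blocked replicate 6, at 0.83 in both cases.

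The 2 apolipoprotein genes moved together, with r = 0.75 and rho = 0.70 for Apoe and Apoc1 (permutation test, adjusted p = 0.0275 and 0.0423). This relation fell to 0.51 without untreated replicate 3 and to 0.37 without the 2 farthest libraries. It also missed the threshold, with r between 0.75 and 0.77, without untreated replicate 1, 4 or 6 or RAAS-blocked replicate 6. Apoe and Pltp had r = 0.81 but rho = 0.54 (permutation test, adjusted p = 0.0270 and 0.150), with r = 0.55 without untreated replicate 3 and 0.46 without the 2 farthest libraries. Leaving out untreated replicate 6 or RAAS-blocked replicate 6 also ended that call, at 0.79 each.

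**Figure D2:**
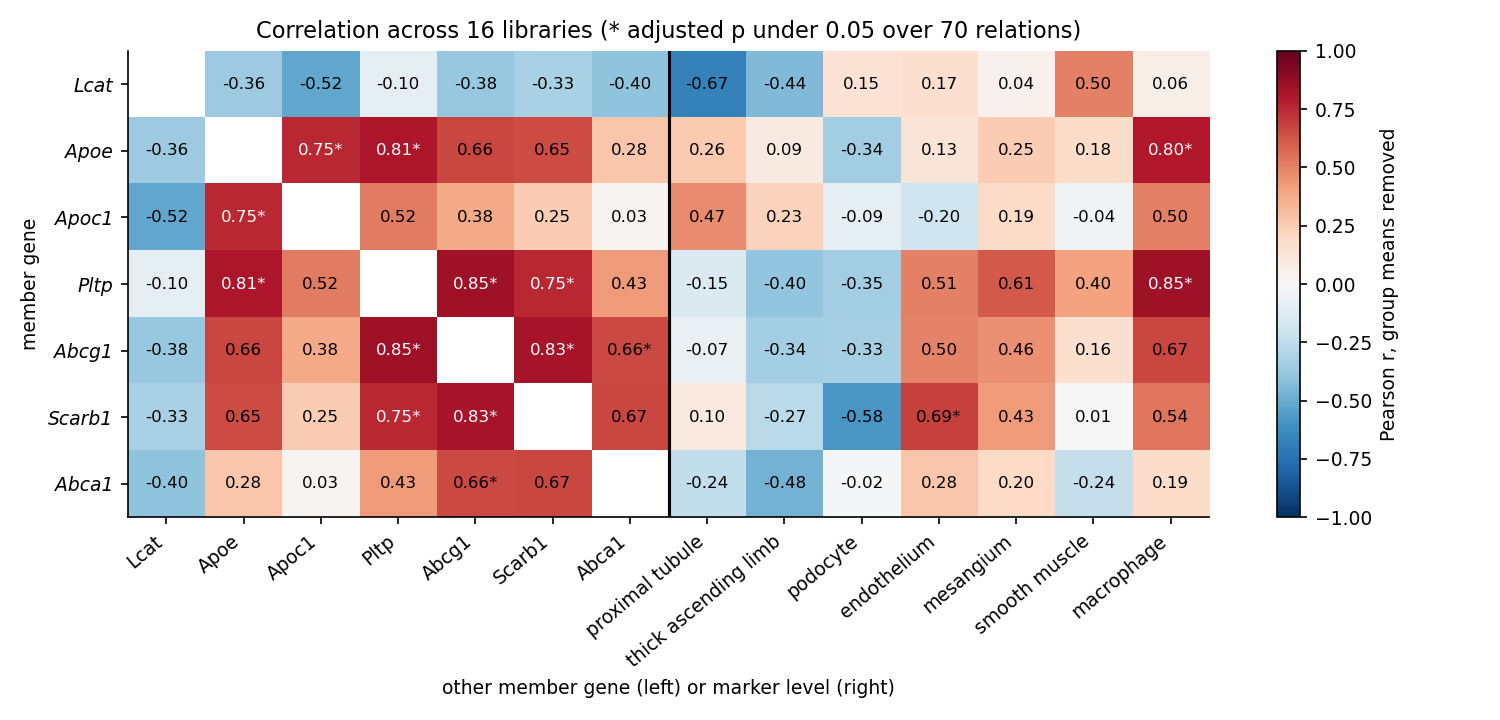
Pearson correlation of each gene (rows) with the other genes (left block) and with 7 cell type marker levels (right block) over 16 libraries, with group means removed from log2(FPKM + 1). Colour and printed value give r, and asterisks mark the 9 of 70 relations with a permutation adjusted p under 0.05. Abcg1, Scarb1 and Pltp form a block of high positive values, and Lcat has negative values with all the other 6 genes.

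Lcat stood outside this block. Its r with the other 6 genes ran from -0.52 (Apoc1) to -0.10 (Pltp), and none of these passed the threshold. The Apoc1 value differed by group, at -0.73 among untreated and 0.09 among RAAS-blocked libraries. Without untreated replicate 3 and RAAS-blocked replicate 4 it was -0.80. Of its 13 relations among the 70, the strongest was with the proximal tubule level, at r = -0.67 and rho = -0.66 (permutation test, adjusted p = 0.0556 and 0.0690). The untreated libraries gave -0.76 and the RAAS-blocked ones -0.47. The RAAS-blocked value leaned on replicate 6, which had the lowest level (1.86) and the highest Lcat (2.57 FPKM). RAAS-blocked replicate 4 had the next lowest level (3.31) but the lowest Lcat of its group (1.10 FPKM). Without the 2 libraries farthest out, untreated replicate 1 and RAAS-blocked replicate 6, r was -0.44. Without untreated replicate 3 and RAAS-blocked replicate 4 it was -0.87. The relation passed the threshold without untreated replicate 3 (-0.75), untreated replicate 4 (-0.71), RAAS-blocked replicate 4 (-0.78) or RAAS-blocked replicate 5 (-0.71). The proximal tubule level itself was 4.20 ± 1.70 (SD, n = 9) in untreated and 4.17 ± 1.29 (SD, n = 7) in RAAS-blocked mice. That level was nearly equal in the groups, so putting it in the model could hardly change the Lcat difference. The difference was then 0.52 ± 0.11 (SE) on the log2 scale.

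The macrophage level passed with 2 genes, in both cases only with untreated replicate 3 included. Pltp had r = 0.85 and rho = 0.71 (permutation test, adjusted p = 0.0201 and 0.0423). Apoe had r = 0.80 and rho = 0.59 (permutation test, adjusted p = 0.0275 and 0.121). Without untreated replicate 3 these values were 0.64 and 0.56 and neither passed; without the 2 farthest libraries they were 0.58 and 0.72. The Apoe relation was also lost without untreated replicate 6 or RAAS-blocked replicate 3, with r = 0.78 in both cases. Apoc1 had r = 0.50 with the macrophage level and 0.00098 without untreated replicate 3, and Abcg1 had 0.67 and 0.25. Scarb1 passed with the endothelial level instead, at r = 0.69 and rho = 0.63 (permutation test, adjusted p = 0.0270 and 0.0603), with r = 0.59 among untreated and 0.92 among RAAS-blocked libraries and 0.59 without the 2 farthest. That call was lost without untreated replicate 6 (0.59), RAAS-blocked replicate 2 (0.66) or RAAS-blocked replicate 6 (0.61). Without untreated replicate 3 the endothelial level passed with Scarb1 (r = 0.76), Abcg1 (r = 0.75) and Pltp (r = 0.81). Apoc1 had r = 0.47 and rho = 0.60 with the proximal tubule level over all libraries (permutation test, adjusted p = 0.237 and 0.121). Without untreated replicate 3 that r was 0.78. In 15 of 16 sets with 1 library left out the relation did not pass.

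**Figure D3:**
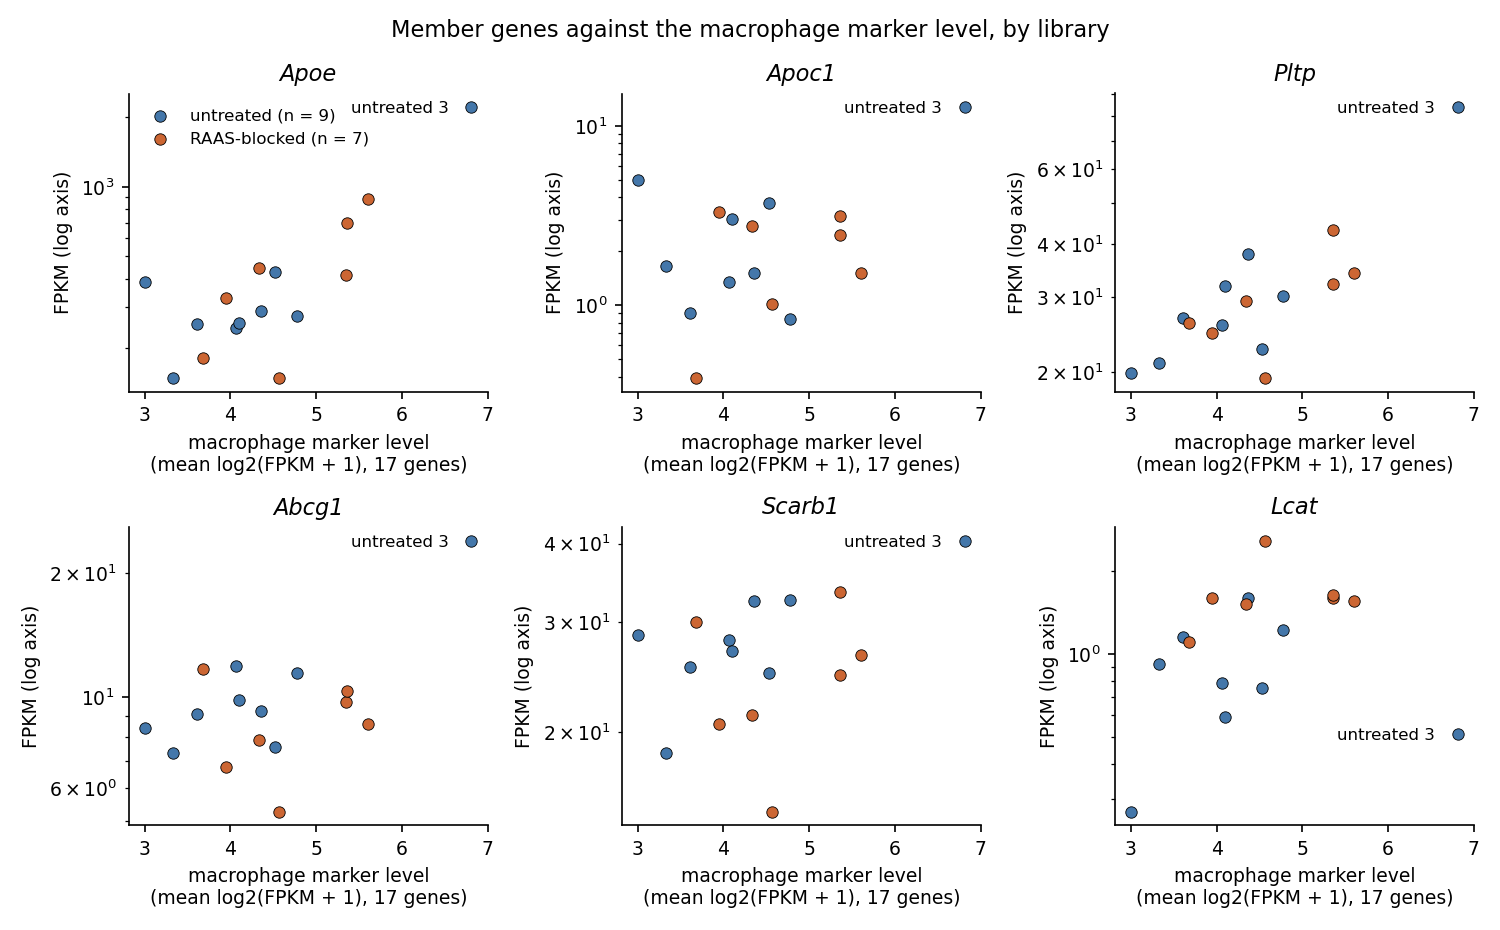
FPKM of 6 of the genes (log axes) against the macrophage marker level, the mean log2(FPKM + 1) of 17 genes, with 1 point per library in blue (untreated) or orange (RAAS-blocked). Untreated replicate 3, at a level of 6.81, is the highest point for Apoe, Apoc1, Pltp, Abcg1 and Scarb1, and among the lower points for Lcat.

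With the macrophage level in the model, a covariate added after the values had been seen, the log2 difference of Apoe was -0.23 ± 0.31 (SE) and that of Pltp -0.24 ± 0.14 (SE). Abcg1 then stood at -0.39 ± 0.16 (SE) and Scarb1 at -0.30 ± 0.14 (SE), while Lcat remained at 0.51 ± 0.15 (SE). The macrophage level was 4.29 ± 1.11 (SD, n = 9) in untreated and 4.69 ± 0.76 (SD, n = 7) in RAAS-blocked mice, with an adjusted p of 0.784 by the exact permutation test. Its summed markers ran from 209 to 3636 FPKM in untreated and from 424 to 1611 FPKM in RAAS-blocked libraries.

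Lcat has close neighbours in the mouse genome. In the RefSeq annotation of GRCm38.p6 it lies on the minus strand of chromosome 8, directly downstream of Slc12a4, which encodes a potassium-chloride cotransporter and is transcribed in the same direction. The stretch between the end of Slc12a4 and the start of Lcat is 187 bases long, and it is printed because the 2 genes were correlated across libraries. It runs from chr8:105943403-105943589 on the minus strand and is read here from 5′ to 3′ towards Lcat, without capitals because no motif is marked.
Slc12a4 to Lcat: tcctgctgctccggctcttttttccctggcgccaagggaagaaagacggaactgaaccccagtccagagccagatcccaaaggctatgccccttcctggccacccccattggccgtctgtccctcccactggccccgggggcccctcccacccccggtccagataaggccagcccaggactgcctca
Which build the deposited values rest on is not given in the sources used here; the positions describe the reference alone.

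Slc12a4 averaged 31.1 ± 4.88 FPKM in the 9 untreated and 34.9 ± 5.43 FPKM in the 7 RAAS-blocked libraries (mean ± SD). The 5 neighbour pairs compared here and below were chosen after values had been seen, so their p-values are a description. With group means removed, Lcat and Slc12a4 had r = 0.71 and rho = 0.71 (permutation test, adjusted p = 0.0167 and 0.0172 over 5 neighbour pairs). The value was 0.69 among untreated and 0.76 among RAAS-blocked libraries, 0.86 without the 2 farthest libraries, and 0.63 to 0.78 when any 1 library was left out. Slc12a4 ranked 97 among all tested genes in its r with Lcat. Lcat amounted to 1.02% to 4.09% of the Slc12a4 level in untreated libraries, with a median of 3.05%, and to 3.83% to 6.19% in RAAS-blocked ones, with a median of 4.73%. These shares overlapped in a narrow band. Whether fragments that run on from Slc12a4 enter the Lcat values was not tested.

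On its other side Lcat is followed by Psmb10, which encodes an immunoproteasome subunit. Psmb10 was at 278 FPKM in RAAS-blocked replicate 6, the library with the highest Lcat, and at 32.7 to 61.1 FPKM in the other RAAS-blocked libraries. The pair had r = 0.32 over all libraries and -0.38 without the 2 farthest (permutation test, adjusted p = 0.220 for the former). In the GENCODE M21 annotation the antisense gene Gm16156 covers 3832 bases of Lcat on the opposite strand. A strand setting for the counting is not given in the sources used here, and the 2 genes cannot be told apart.

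**Figure D4:**
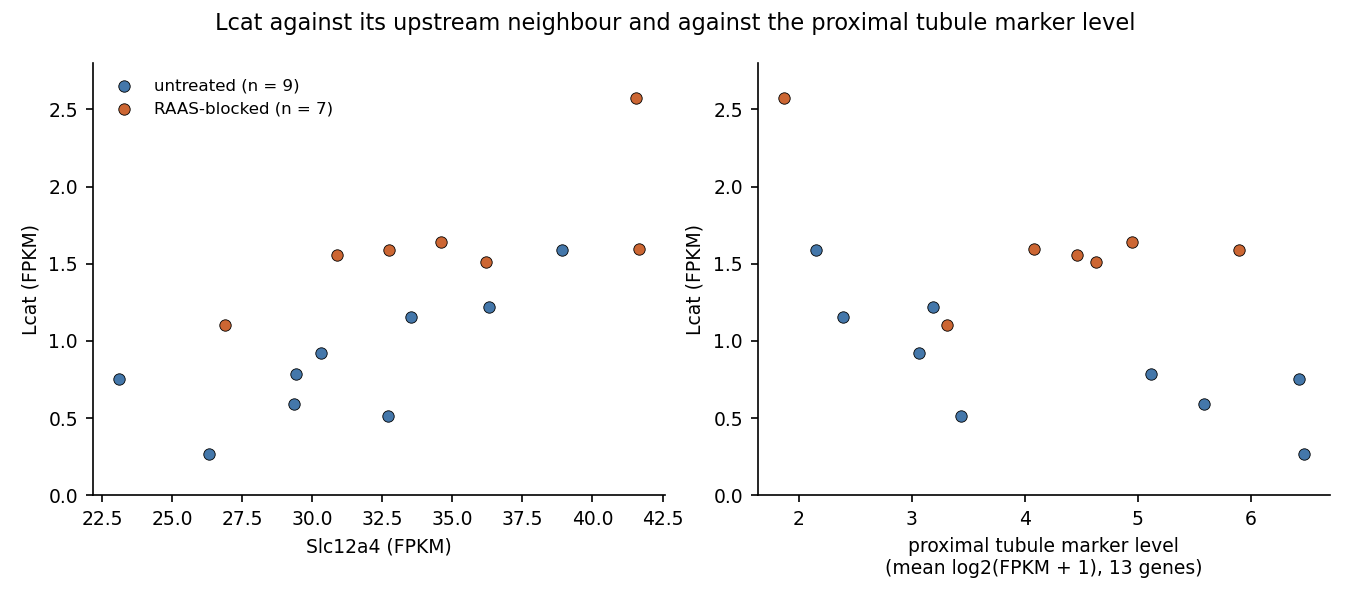
Lcat in FPKM against Slc12a4 in FPKM (left) and against the proximal tubule marker level, the mean log2(FPKM + 1) of 13 genes (right), 1 point per library in blue (untreated) or orange (RAAS-blocked). Lcat is higher where Slc12a4 is higher in both groups. Among untreated libraries it is lower where the proximal tubule level is higher. Among RAAS-blocked libraries that relation leans on replicate 6, which has the lowest level and is at the top in both panels.

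Other members have neighbours as well. Apoe and Apoc1 are 3448 bases apart on the same strand in GENCODE M21. Apoe had r = 0.11 with Tomm40, its neighbour on the other side (permutation test, adjusted p = 0.673). Apoc1 had r = 0.43 with Apoc2, which lies farther from it than Apoe does (permutation test, adjusted p = 0.172). Pltp overlaps Ctsa, which encodes lysosomal cathepsin A, by 1515 bases on the opposite strand. Their r was 0.77 and rho 0.53 (permutation test, adjusted p = 0.0331 and 0.0850), with r = 0.36 without untreated replicate 3 and 0.42 without the 2 farthest libraries. This pair, like the other neighbour pairs, was chosen after its values were seen. Reads from the overlap cannot be assigned to either gene without strand.

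Because 5 of the genes are known LXR targets, the 250 bases before the RefSeq gene start were searched for a DR4 element, the binding motif of the LXR and retinoid X receptor pair, on both strands with at most 1 mismatch. Windows were given for 4 of the 7 genes (Lcat, Apoe, Abca1 and Pltp, 6 windows in all). One gene, Abca1, held a match, at 67 to 52 bases before its start and on the strand opposite to the gene. Of all 32851 windows of this length, 4.05% held such a match, and 0.195% held one without mismatch. The Abca1 window, chr4:53159896-53160145 on the minus strand of GRCm38.p6, is printed with the match in capitals.
Abca1 upstream: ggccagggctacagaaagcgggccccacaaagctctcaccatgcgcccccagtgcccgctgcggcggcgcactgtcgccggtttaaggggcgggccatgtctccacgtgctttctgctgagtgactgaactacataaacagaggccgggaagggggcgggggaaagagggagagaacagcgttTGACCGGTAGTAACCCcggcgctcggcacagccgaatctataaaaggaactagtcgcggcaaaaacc
The windows of the other 3 genes do not hold these letters, which says nothing of sites elsewhere.

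The remaining lipoprotein and sterol genes were taken as 7 lists of 105 genes, of which 73 passed the filter. None passed the adjusted limma threshold. In RAAS-blocked mice 31 were higher and 42 lower, beside 5944 higher and 7342 lower among all tested genes. Of the 73, 5 had an unadjusted limma p under 0.05 (2 higher, 3 lower), beside 6.13% of all tested genes. By the exact Wilcoxon test 0 passed after adjustment and 4 had an unadjusted p under 0.05. Their median log2 difference was -0.04, beside -0.02 for all tested genes. Without both libraries that stood apart, 36 were higher and 37 lower, 11 genes having changed sign, and the means and SDs below include those libraries unless stated.

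Of 13 further apolipoprotein genes 5 were tested. The most abundant was Clu, which encodes clusterin, with a mean ± SD of 338 ± 125 FPKM over 9 untreated and 255 ± 89.4 FPKM over 7 RAAS-blocked libraries, a log2 difference of -0.40 ± 0.26 (SE). Apoc2, the activator of lipoprotein lipase, differed by 0.19 ± 0.53 (SE) on the log2 scale (0.69 without both libraries), and Apom, which carries sphingosine 1-phosphate on HDL, by -0.45 ± 0.59 (SE). Apoa1, the main protein of HDL, reached 0.195 FPKM at most. The list had a median log2 difference of -0.23, with 2 genes higher and 3 lower.

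Among 5 tested HDL-modifying enzymes 1 was higher and 4 were lower. Lpl, lipoprotein lipase, averaged 91.1 ± 44.4 FPKM in the 9 untreated and 69.3 ± 22.4 FPKM in the 7 RAAS-blocked libraries (mean ± SD). Without both libraries that stood apart the Lpl means were 77.5 and 65.8 FPKM. Pon2, a paraoxonase, differed by -0.05 ± 0.13 (SE) and Pla2g7, platelet-activating factor acetylhydrolase, by 0.28 ± 0.33 (SE), both on the log2 scale. The Pla2g7 difference was 0.53 without both libraries. The 8 other sterol and lipid ABC transporters divided into 4 higher and 4 lower. Abcg2, Abca2 and Abca3, the most abundant of them, had log2 differences of -0.04 ± 0.16, -0.15 ± 0.16 and -0.13 ± 0.15 (SE). Abcb1a, which encodes a P-glycoprotein and was named after its values were seen, had the largest difference of the 73 pathway genes, at 0.89 ± 0.28 (SE), with an adjusted p of 0.639 by limma. Its means were 6.44 ± 3.57 FPKM (SD, n = 9) and 12.0 ± 3.97 FPKM (SD, n = 7).

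The 16 lipoprotein receptors and adaptors were evenly divided, with 8 higher and 8 lower, and had 3 of the 5 genes with an unadjusted p under 0.05, all lower. Lrpap1, the chaperone of the LDL receptor family, averaged 65.6 ± 4.59 FPKM in the 9 untreated and 56.8 ± 2.35 FPKM in the 7 RAAS-blocked libraries (mean ± SD), a log2 difference of -0.20 ± 0.05 (SE) with an adjusted p of 0.448 by limma. Scarb2, a lysosomal relative of Scarb1, differed by 0.01 ± 0.16 (SE) and Hdlbp, an RNA-binding protein first described as an HDL-binding protein, by 0.01 ± 0.05 (SE), both on the log2 scale.

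In the LXR list, with 17 genes tested, 5 were higher and 12 lower. Without both libraries that stood apart, Srebf2, Nr1h2 and Rxrb of this list turned from lower to higher. Smpdl3a, an LXR target that encodes a phosphodiesterase, averaged 125 ± 22.4 FPKM in the 9 untreated and 108 ± 20.6 FPKM in the 7 RAAS-blocked libraries (mean ± SD). Nr1h2, which encodes LXR beta, differed by -0.03 ± 0.13 (SE) and the corepressor gene Ncor1 by -0.00115 ± 0.061 (SE) on the log2 scale. Nr1h3, which encodes LXR alpha and is abundant in macrophages, is named because 1 alternative called it. Its untreated values ran from 2.26 over a median of 3.36 to 20.6 FPKM, the last in untreated replicate 3, and its RAAS-blocked values from 2.85 in replicate 4 over a median of 6.15 to 8.86 FPKM. Over all libraries the log2 difference was 0.49 ± 0.33 (SE), with an adjusted p of 0.877 by limma. Without these 2 libraries it was 0.90 ± 0.16 (SE) with an adjusted p of 0.0485 by limma, and the means were 3.45 ± 1.01 FPKM (SD, n = 8) and 7.27 ± 1.61 FPKM (SD, n = 6). In the same 14 libraries the macrophage level was 3.97 ± 0.61 (SD, n = 8) in untreated and 4.86 ± 0.67 (SD, n = 6) in RAAS-blocked mice, a gap of 0.89 on the log2 scale. Its part in the Nr1h3 difference was not tested.

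Of 16 tested genes of lysosomal and stored cholesterol 6 were higher and 10 lower, all within 0.16 of 0 on the log2 scale. Tspo, an outer mitochondrial membrane protein, Scp2, a sterol carrier, and Lipa, lysosomal acid lipase, had log2 differences of -0.15 ± 0.16, -0.12 ± 0.13 and -0.12 ± 0.15 (SE). Among 6 enzymes of oxysterols and bile acids 5 were higher and 1 lower. Ch25h, cholesterol 25-hydroxylase, ranged widely (log2 difference 0.40, and 0.82 without both libraries), at 20.4 ± 21.5 FPKM (SD, n = 9) and 38.5 ± 49.6 FPKM (SD, n = 7), whereas Cyp27a1, sterol 27-hydroxylase, and Hsd3b7, an enzyme of bile acid synthesis, differed by -0.02 ± 0.23 and 0.07 ± 0.10 (SE) on the log2 scale.

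**Figure D5:**
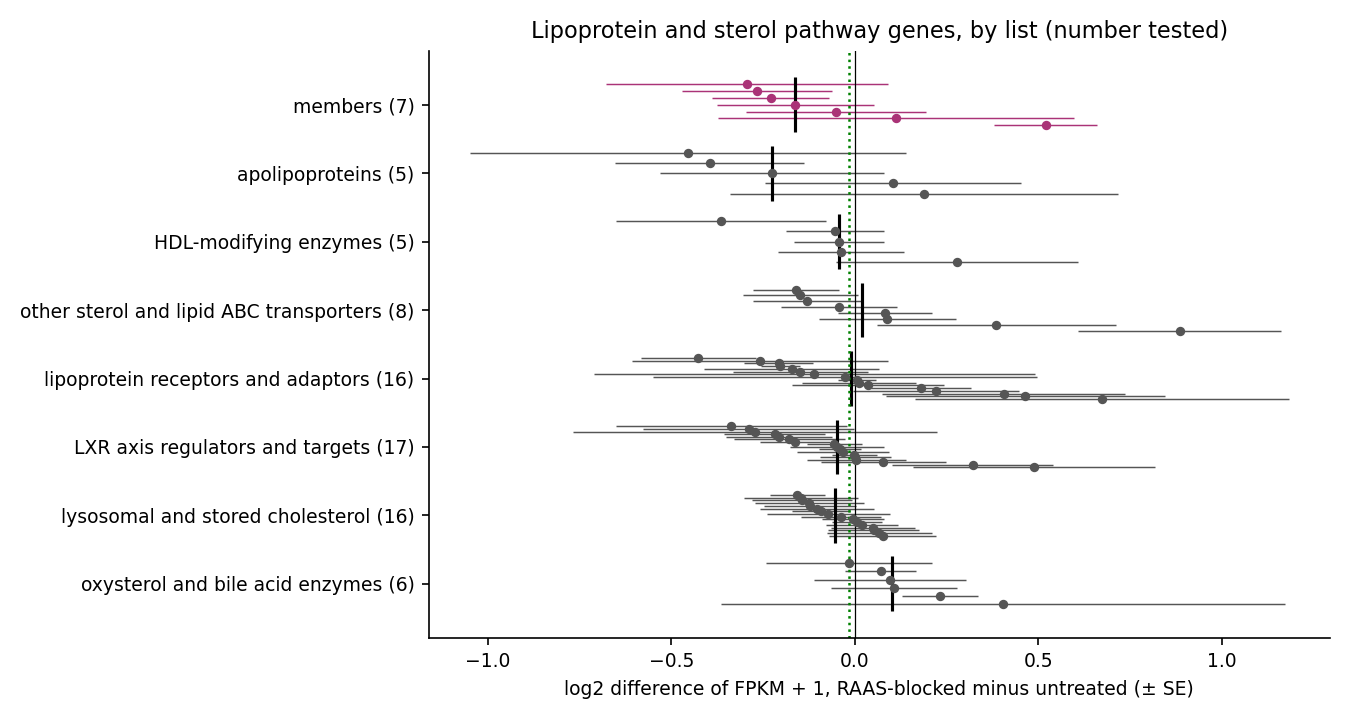
Difference of log2(FPKM + 1), RAAS-blocked minus untreated, with its SE, for the 7 genes (purple) and the 73 tested pathway genes (grey), in rows by list. Black bars are list medians and the green dotted line is the median of all tested genes, -0.02; Lcat, at 0.52, is the rightmost of the 7.

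The genes most like each of the 7 were found by r over 16 libraries with group means removed, among about 10756 tested genes with a mean of at least 2 FPKM, and are given as a description. Lcat was most like Tmc6 (r = 0.86), Npdc1 (0.85) and D11Wsu99e (0.83). Apoe was most like Trf (0.95), which encodes transferrin, Man2b1 (0.94), a lysosomal mannosidase, and Psap (0.93), the precursor of the saposins. These 3 remained at 0.85 to 0.89 without untreated replicate 3. Genes much like Abca1 included Cir1 (0.84) and Galntl2 (0.84). Abcg1 and Scarb1 had the same nearest gene, the transcription factor Etv5, with r = 0.90 for each. Next for Abcg1 came Soat1 (0.88), which encodes the enzyme that esterifies cholesterol inside cells, and Cyp4f16 (0.87), and for Scarb1 Tcf20 (0.90) and Wdfy3 (0.88). Pltp was most like Armcx6 (0.96), Marcks (0.95) and Pid1 (0.94), and Apoc1 was most like B3galnt1 (0.88), Atp6v1b2 (0.84), a subunit of the proton pump, and Ftl1 (0.84), ferritin light chain. Without untreated replicate 3 Ftl1 had r = 0.68 with Apoc1 and Cyp4f16 r = 0.69 with Abcg1.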

How the data were processed

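Glomerular RNA of 16 mice was measured, from libraries prepared with Illumina's TruSeq mRNA v2 kit, per the labels' protocols. The authors deposited 1 table of FPKM values. Cuffdiff 2.2.1, Cufflinks, TopHat2 2.0.8, FastQC and CASAVA 1.8.2 are named, with no roles, in the submitters' processing notes; genome build, annotation and strand setting were not given in the sources used here. Depth is unknown; from steps in low values the libraries' relative depths were 1 to 1.69 times that of untreated replicate 0. Libraries are taken as separate mice, which the labels do not state one by one, so p-values measure the spread between libraries.

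The 13286 genes that reached 1 FPKM in 7 or more libraries were fitted as log2(FPKM + 1) with limma 3.58.1 in R 4.3.3 (group as the only term, mean trend, robust variance, Benjamini-Hochberg). Differences on this scale understate changes of low genes. Correlations used 100000 permutations within groups (numpy 2.4.6). The marker level is a mean of log2(FPKM + 1). The functions were tested on simulated data.

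The 7 genes, the lists and the tests were chosen with earlier results of these data known. Named are the 7 genes, the 3 most abundant of each pathway list and any called, the 3 most like each gene, markers and genome neighbours. Some genes that this rule takes are not reported here. T and B cell, thick ascending limb, collecting duct, mesangium and smooth muscle lists were also measured. No level was formed for the T and B cell list, in which 1 of 9 genes passed the filter. Of the levels of the other lists named here none differed between groups (exact permutation, adjusted p of at least 0.256). Sequences are from RefSeq, GRCm38.p6. Alternatives covered the pseudocount, filter, scaling, array weights, variance model, covariates, a rank test, a replicate block and the omission of libraries. The macrophage covariate, the neighbour pairs, the omission of 2 libraries together and the alternatives for Lcat with Slc12a4 were chosen after seeing the data.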

Additional observations from a re-analysis of the deposited data

Results flagged for a closer look

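Dixon's criterion was applied to the 7 genes, Slc12a4, Psmb10 and 7 marker levels, in 32 groups of 7 or 9 libraries. The neighbours Tomm40, Apoc2 and Ctsa were not screened. In 7 groups the highest or lowest library had a gap to the next that was large for the group's range. Chance gives about 1 in 20. Most of the 7 concern untreated replicate 3: Apoe at 2219 FPKM (next untreated library 426 FPKM), Abcg1 at 24.0 FPKM (next 11.9 FPKM), Pltp at 84.0 FPKM (next 38.0 FPKM) and the macrophage marker level at 6.81 (next 4.77). RAAS-blocked replicate 6 was the highest of its group for Lcat, at 2.57 FPKM (next 1.64 FPKM), and for Psmb10, at 278 FPKM (next 61.1 FPKM). Untreated replicate 1 had the lowest smooth muscle level, at 3.17 (next 4.40).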

How the results depend on the processing

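Where the main setting called 2 of 13286 genes, leaving out Rn18s, requiring 1 FPKM in all 16 libraries or the exact Wilcoxon test called 0. Upper-quartile scaling, quantile normalization, no trend and robust settings, the proximal tubule covariate and the macrophage covariate called 1 each, array weights called 11, and leaving out untreated replicate 3 and RAAS-blocked replicate 4 together called 16. The replicate block also called 1. Same-numbered libraries deviated together with correlations of -0.28 to 0.43, and 1 of 7 correlated best with its own number. These values cannot show whether the numbers pair the libraries, and the labels state no pairing. Leaving out 1 library gave 1 to 6 calls, the most without RAAS-blocked replicate 4, and 4 without untreated replicate 8. Of the pathway genes, 1 was called with the 2 libraries left out together and 0 in every other alternative run. The Lcat difference kept its direction in all alternatives and was 0.95 with a pseudocount of 0.1; the strict filter gives no value for Lcat or Apoc1. Of 70 relations, 9 passed in the main setting and 6 to 11 in the other settings. Leaving out 1 library gave 3 to 14, with 3 without untreated replicate 6, 4 without RAAS-blocked replicate 6 and 14 without RAAS-blocked replicate 4. No called value changed sign. The unknown depth limits what can be said of Lcat and Apoc1, whose levels lie near 1 FPKM. Other causes of these changes were not tested.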
